A study of Mus musculus with 4 samples.

Results

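Protein phosphatases remove phosphate groups from proteins and so oppose the kinases. In excitatory neurons calcineurin, the phosphatase that calcium and calmodulin switch on, and protein phosphatase 1 (PP1), which acts downstream of it, are known for their part in long-term depression of synapses. PP1, PP2A, PP4 and PP6 work as a catalytic subunit bound to regulatory subunits that set its target and place, whereas the Ppm1, Ptpn, Ptpr and Dusp enzymes carry their own targeting regions.

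The genes described here are those whose symbol in the deposited table starts with Ppp1 to Ppp6 followed by c or r, or with Ppm1, Ptpn, Ptpr or Dusp, leaving out Ppp1r9a and Ppp1r9b. They came to 72 of 7202 gene names, 107 of 9297 polyA sites and 358 of 34672 tags. All tags came from the CA1 neuropil of the hippocampus, the layer that holds mainly dendrites of CA1 pyramidal neurons together with axons and glia. The libraries were made by cTag-PAPERCLIP from C57BL/6 mice of the genotype Camk2a-Cre x Pabpc1- cTag. In these mice Cre, driven by the Camk2a promoter, tags Pabpc1 with GFP in excitatory neurons. Pabpc1 binds poly(A) tails, so that RNA crosslinked to it and purified through GFP marks mRNA 3′ ends. The 4 libraries formed 1 group, and each was a pool of several mice. The methods refer to adult mice for this way of collecting tissue and give no age in weeks for these libraries. With 1 group there was no contrast between conditions, and the replicates were compared with each other to see which phosphatase 3′ ends recurred in the neuropil.

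Replicates 1 to 4 held 16017, 6609, 5947 and 6099 tags at the listed sites, taken here as the library. A gene with a count of 0 could still hold 0.0187%, 0.0454%, 0.0504% and 0.0492% of them, taken as 3 tags of the total. These limits and the 95% Wilson intervals below cover counting error only, since tags copied by PCR are not independent molecules. No 2 libraries were duplicates. Sampling noise gives a chi-square of 1 per degree of freedom over genes, and replicates 3 and 4 reached 2.45 while the other pairs ran from 13.0 to 19.6. Of the pyramidal neuron markers, 8 of 10 had tags (207 tags, 0.378 to 0.705% of a library), while no site carried the name of Slc17a7. The sites in the annotated Camk2a 3′UTR carried the name of a microRNA in the table. Astrocyte markers held 0.0984 to 0.325%, oligodendrocyte markers 0.131 to 0.560%, interneuron markers 0.0454 to 0.246%, and blood and vessel markers 0.0312 to 1.28% of a library. Only 1 of 6 microglial markers had tags. The part of these other cells in the values below was not tested, and fewer cells with an mRNA cannot be told apart from less mRNA per cell.

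The sequences around chosen sites inside annotated phosphatase genes follow, to show whether a polyadenylation signal or a run of A stands beside each. The intron site named Ppp4r2, with 35 tags the highest of the sites with a phosphatase name, is not among them. Each is 30 bases of RefSeq GRCm38 (mm10), 5′ to 3′ on the strand of the gene, from 12 bases before to 17 bases after the listed position. Capitals mark AATAAA or ATTAAA, the usual polyadenylation signals. Where these are absent, capitals mark AGTAAA in the Ppp1cb window, the letters GATAAA in the Ppp1r1a window and the run of A at Ppp3ca site 2. The Ppp3ca sites are numbered in order from the stop codon.
Ppp3ca site 1, chr3:136935442-136935471 (+): gggtatgcctttaaaaaatgcttctaggga
Ppp3ca site 2, chr3:136935765-136935794 (+): gaattaggcagtcttAAAAAAAAAAAAAAg
Ppp3ca site 3, chr3:136936201-136936230 (+): aaacaaaaaaattctgcctatgcatgtttt
Ppp3ca site 4, chr3:136936814-136936843 (+): tatattactactcAATAAAatgtgcatgaa
Ppp3ca site 5, chr3:136937370-136937399 (+): attatgcctattatattaagtaatgagagt
Ppp3ca site 6, chr3:136937691-136937720 (+): atggcatagaAATAAAcatttgacattgaa
Ppp3r1 (named Wdr92 in the table), chr11:17200339-17200368 (+): tactgtatgagtaagaaAATAAAatatttg
Ppp3cb, chr14:20500038-20500067 (-): tagcacacAATAAAttccatgcatgggccg
Ppp1cb, chr5:32492719-32492748 (+): agttttctcatttAGTAAAagttgtctaat
Ppp1r16b, chr2:158766301-158766330 (+): tttaattaagattATTAAAttccttttaat
Ppp1r1a, chr15:103530843-103530872 (-): gtttttaaaaagtGATAAAtttggtgttag
Ppp2r1a, chr17:20965870-20965899 (+): ccctactgtacacggagaAATAAAggtgta
Ptprn, chr1:75247047-75247076 (-): gtgAATAAAgttagtgtgttgtctgtgcag
Ppm1e, chr11:87226904-87226933 (-): gccaatatcttAATAAAactcagcaattaa

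In these windows AATAAA stood at 53 of the 107 phosphatase sites (49.5%, against 56.1% of all placed sites) and ATTAAA at 8 (7.48% against 14.9%). Either signal stood at 61 phosphatase sites (57.0% against 68.8%). Of the 46 phosphatase windows with neither signal, 8 held a variant (7.48% of phosphatase sites, against 6.60% of all placed sites). The variants were TATAAA at 2, AGTAAA at 1, CATAAA at 2 and GATAAA at 3. All were searched on the strand of the gene only, and a window with 2 motifs counts for both. A match is a run of letters and not a measured signal.

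Phosphatase genes together held 130, 59, 72 and 97 tags in replicates 1 to 4. Their share of the library was 0.812% (95% Wilson interval 0.684 to 0.963%), 0.893% (0.693 to 1.15%), 1.21% (0.963 to 1.52%) and 1.59% (1.31 to 1.94%), with a mean of 1.13% ± 0.354 (SD, n = 4). These shares also depend on Bc1-like sites, which resemble Bc1, a short noncoding RNA of neurons, and held 32.9, 11.8, 2.59 and 2.07% of the tags of replicates 1 to 4. Over the tags outside those sites the phosphatases held 1.21, 1.01, 1.24 and 1.62%, or 1.27% ± 0.256 (SD, n = 4). Replicate 4 was highest both ways, while the lowest was replicate 1 over all tags and replicate 2 over the tags outside Bc1-like sites. A pair of sites described below, an intron site named Ppp4r2 and a site named Ptpn23, held 48 of these tags far outside the genes they are named for. Without them the share was 0.755, 0.847, 1.03 and 1.18%, or 0.952% ± 0.189 (SD, n = 4). With Bc1-like sites also left out of the totals it was 1.13, 0.960, 1.05 and 1.21%, or 1.09% ± 0.104, and the order of the replicates changed. Of the 72 genes, 9 (12.5%, against 7.76% of all names) had tags in every replicate and 32 (44.4%, against 52.6%) in only 1. The median was 3 tags per gene against 2 for all names, and 25 genes had a single tag.

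By family, PP1 held 90 tags (19 genes), calcineurin 58 (3 genes), PP2A 45 (11 genes), receptor-type tyrosine phosphatases 44 (10 genes), PP4 43 (2 genes), Ppm1 enzymes 23 (7 genes), non-receptor tyrosine phosphatases 22 (5 genes), dual-specificity phosphatases 20 (11 genes), PP6 7 (3 genes) and PP5 6 (1 gene). The method is meant to mark 3′ ends, so these counts were not divided by transcript length. Whether they grow with it was not tested. By name, 49 of the 58 calcineurin tags were those of Ppp3ca, whereas the dual-specificity family spread 20 tags over 11 genes, none with more than 6. These totals weigh the deeper replicate 1 most. By mean share PP4 (0.175% ± 0.219) came after PP1 (0.278% ± 0.101) and before calcineurin (0.170% ± 0.115), PP2A (0.144% ± 0.0743) and the receptor-type enzymes (0.131% ± 0.0502). The differences of these families from PP4 were smaller than the spread of PP4 between libraries. Of the 22 non-receptor tags, 13 lay at the Bc1-like site named Ptpn23, and without it the family held 3, 1, 3 and 2 tags, or 0.0187, 0.0151, 0.0504 and 0.0328% of a library. The order of the families differed between libraries. Regulatory PP1 genes, counted apart from the catalytic ones, led in replicates 1 and 2 with 30 and 25 tags. PP4, with 1 and 0 tags there, led in replicates 3 and 4 with 14 and 28 tags. With PP1 taken as a whole, PP1 led in replicate 3 with 16 tags. The order also depended on the names. By annotated gene calcineurin (0.335% ± 0.212) came before PP1 (0.259% ± 0.0830), and only 2 of the 40 tags named Ppp4r2, which gave PP4 its rank, lay in that gene.

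**Figure D1:**
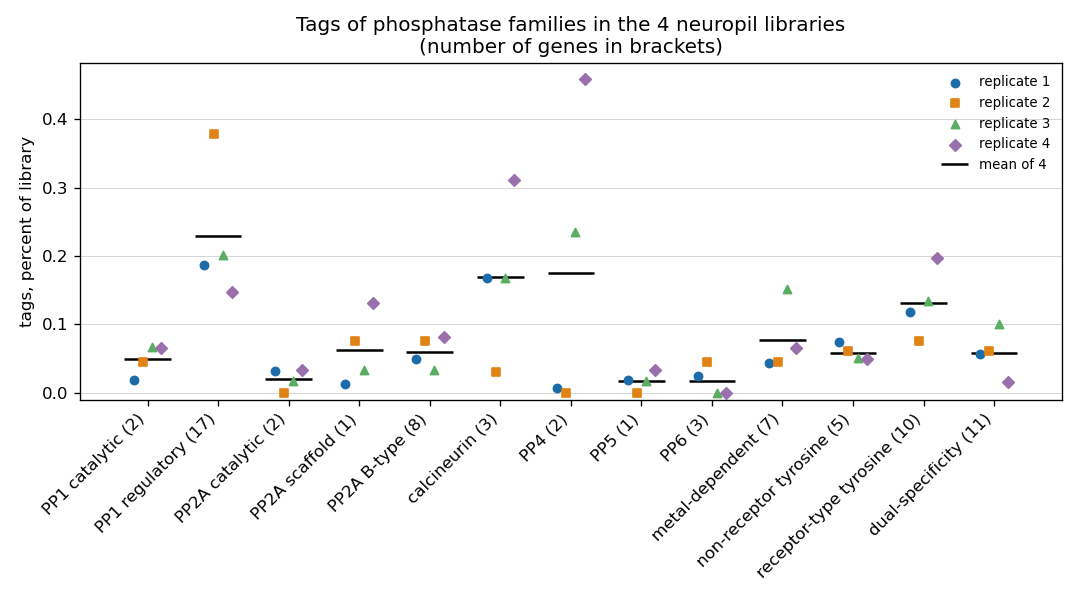
Share of library tags (percent, y axis) held by each phosphatase family in the 4 neuropil libraries; points are single libraries and bars are means of 4. PP4 ranged from 0 to 0.459% and calcineurin from 0.0303 to 0.312%. Non-receptor tyrosine phosphatases lay between 0.0492 and 0.0749%, and between 0.0151 and 0.0504% without the Bc1-like site named Ptpn23, which the plotted points include.

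Calcineurin is a dimer of a catalytic A subunit (Ppp3ca, Ppp3cb or Ppp3cc) and a regulatory B subunit (Ppp3r1 in brain). Ppp3ca, the gene of the main neuronal catalytic subunit, had more tags by name than any other of the 72 genes, with 24, 1, 7 and 17 in replicates 1 to 4. That was 0.150% (95% Wilson interval 0.101 to 0.223%), 0.0151% (0.00267 to 0.0857%), 0.118% (0.0570 to 0.243%) and 0.279% (0.174 to 0.446%) of the library, a mean of 0.140% ± 0.109 (SD, n = 4). By mean share the name Ppp4r2 stood above it (0.163%). Of all names in the table, 56 had more tags. Replicate 2 stood low with its 1 tag, and replicate 4 stood high. Ppp3cb had 3, 1, 2 and 2 tags (0.0251% ± 0.00952) and Ppp3cc 1 tag, in replicate 3. The share of Ppp3ca was above that of Ppp3cb in 3 of 4 replicates and equal in the other, a mean difference of 0.115 percentage points ± 0.103 (exact sign-flip permutation test over replicates, two-sided, p = 0.25, adjusted over 4 pairs of genes p = 0.33). With 4 replicates the exact sign-flip test cannot go below p = 0.125.

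No site in the table carried the name Ppp3r1. A site named Wdr92, at chromosome 11 position 17200351 on the plus strand, lay in the GENCODE 3′UTR of Ppp3r1, 24 bases before the end of that gene. It also lay inside the overlapping Wdr92 gene on the same strand, 33445 bases before its end. This site held 22, 3, 12 and 17 tags, or 0.166% ± 0.0989 (SD, n = 4), more than Ppp3ca over the 4 libraries. It was higher than Ppp3ca in 2 replicates, lower in 1 and equal in 1 (exact sign-flip permutation test, two-sided, p = 0.5, adjusted p = 0.5). Counted by annotated gene instead of by name, calcineurin held 0.335% of tags against 0.170% by name.

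Ppp3ca tags were spread over 6 sites in its 3′UTR on chromosome 3, plus strand, from 229 to 2478 bases after the stop codon. Site 4, 1601 bases after the stop codon, held 5, 1, 4 and 13 tags, 46.9% of the gene. It was the only Ppp3ca site with a tag in every replicate, and AATAAA stands 1 base after the listed position. Site 2, 552 bases after the stop codon, held 10, 0, 1 and 1 tags. It lay 2 bases before the end of an annotated shorter transcript and next to a run of 14 A, with neither AATAAA nor ATTAAA within 50 bases. Site 6, 24 bases before the annotated end of the gene, held 2, 0, 2 and 2 tags, and sites 1, 3 and 5 held 1, 4 and 3. Replicate 1 gave most of the tags at sites 2 and 3, and replicate 4 most of those at site 4.

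**Figure D2:**
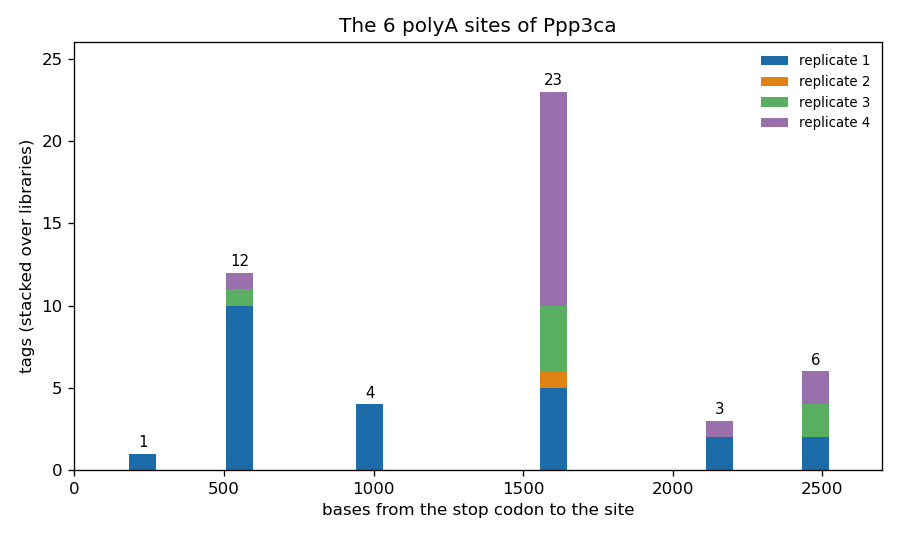
Tags at the 6 Ppp3ca polyA sites (y axis, stacked over the 4 libraries, totals above the bars) by distance in bases from the stop codon (x axis). The tallest bar, 23 tags at 1601 bases, holds tags of every library, while 10 of the 12 tags at 552 bases came from replicate 1.

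Whether the mix of Ppp3ca sites differed between libraries depended on the site set apart. With the most distal site against the others, as for every gene, the exact Freeman-Halton test gave adjusted p = 0.868. Over all genes with more than 1 site and at least 20 tags this exact test called 13 of 101 (12.9%), and called neither of the 2 phosphatase genes tested, Ppp3ca and Ppp4r2 (adjusted p = 0.516). For Ppp4r2 the most distal site was the intron site outside that gene. With site 4 against the others, the site with the most tags, the adjusted p of the exact test for Ppp3ca was 0.00823, and 17 of 101 genes (16.8%) were called. At 10 tags or more, where the exact test called 11 of 256 genes (4.3%), it called 0 of 4 phosphatase genes.

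PP1 was represented by 2 catalytic genes. Ppp1cb, the beta catalytic subunit that pairs with myosin phosphatase targeting subunits, had 3, 2, 4 and 4 tags (0.0455% ± 0.0247, SD, n = 4). Ppp1ca, the alpha subunit, had 1 tag, in replicate 2. Ppp1cb was higher in 4 of 4 replicates, by 0.0417 percentage points ± 0.0286 (exact sign-flip permutation test, two-sided, p = 0.125, the smallest it can give, adjusted p = 0.33). No site carried the name of the third catalytic gene, Ppp1cc. Of the 13 Ppp1cb tags, 12 lay 1673 bases after the stop codon and 24702 bases before the annotated end of the gene, at a site with tags in every replicate. Its window holds AGTAAA, found at 1.87% of phosphatase sites and 3.28% of all.

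The 17 names of regulatory PP1 genes held 30, 25, 12 and 9 tags. The annotation lists 2 of them, Ppp1r2-ps3 and Ppp1r2-ps9 with 1 tag each outside their loci, as processed pseudogenes. Ppp1r16b, a membrane-associated targeting subunit, had 8, 10, 1 and 1 tags at a single site 21 bases before the end of its gene and 4450 bases after the stop codon. Its share was 0.0586% ± 0.0638 (SD, n = 4), higher in replicates 1 and 2 than in 3 and 4. Oligodendrocyte markers, with 46, 37, 11 and 8 tags, were also higher there (0.287, 0.560, 0.185 and 0.131% of a library). So were astrocyte markers (0.325, 0.151, 0.118 and 0.0984%) and Bc1-like sites. Blood and vessel markers (0.0312, 0.560, 1.28 and 0.148%), pyramidal neuron markers and interneuron markers were not higher in both. The part of any of these in the Ppp1r16b values was not tested. Ppp1r12c, of the myosin phosphatase targeting family, had 3, 3, 1 and 1 tags at a site 20 bases before its gene's end. Ppp1r1a, inhibitor 1 of PP1, had 6, 3, 3 and 0 tags and was singled out after its values were seen. Of these, 10 lay 84 bases after its stop codon, 581 bases before the end of the gene, in a window with GATAAA, which 1.47% of all sites hold. Ppp1r1b, known as DARPP-32, had 4 tags, Ppp1r2, known as inhibitor 2, had 4 tags, and the stress-induced Ppp1r15a had 3. The other regulatory PP1 genes had 1 to 6 tags each.

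PP2A joins a scaffold, a catalytic subunit and a B-type subunit. The scaffold gene Ppp2r1a had 2, 5, 2 and 8 tags (0.0632% ± 0.0523, SD, n = 4), all at a site 34 bases before its gene's end and 411 bases after the stop codon. The catalytic genes Ppp2ca and Ppp2cb had 2, 0, 1 and 1, and 3, 0, 0 and 1 tags. The Ppp2cb site lay 337 bases past the annotated end of the gene. Ppp2r1a exceeded Ppp2ca in 3 of 4 replicates and equalled it in tags in replicate 1 (difference 0.0518 percentage points ± 0.0530, exact sign-flip permutation test, two-sided, p = 0.25, adjusted p = 0.33). The 8 B-type genes held 20 tags, none more than 4. The PP5 gene Ppp5c had 3, 0, 1 and 2 tags and the PP6 catalytic gene Ppp6c a single tag.

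For PP4, most tags lay away from the genes they are named for. Its catalytic gene Ppp4c had 0, 0, 2 and 1 tags in its own 3′UTR. Its regulatory gene Ppp4r2 was listed with 1, 0, 12 and 27 tags, the second highest count among the phosphatases, but only 2 of these 40 tags lay in the Ppp4r2 3′UTR. On the plus strand of chromosome 6, 264 kb past the end of Ppp4r2 and in an intron of the antisense gene Gm43948, a site named Ppp4r2 held 0, 0, 11 and 24 tags. The reference marks 86.1% of the bases within 50 bases of it as repeats, and AATAAA starts 25 bases after the listed position. Sites with at least 50% of such bases made up 27.1% of phosphatase sites and 24.7% of all sites. A further 3 tags, all in replicate 4, lay 14.97 kb past the gene beside a run of 20 A.

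The 26 tyrosine and dual-specificity genes together held 40, 13, 17 and 16 tags (0.249% ± 0.0377, SD, n = 4), with the Bc1-like site named Ptpn23 included. Ptprn, a receptor-type protein of dense-core vesicles without phosphatase activity, led with 9, 2, 2 and 5 tags (0.0505% ± 0.0239), all at a site 37 bases before its gene's end. Ptprd, a presynaptic adhesion receptor, had 6 tags at 5 sites, 3 of them in introns. Ptprs, of the same class, had 2 tags by name, both in an intron, while a site in the annotated Ptprs 3′UTR that carried a microRNA's name held 6, 2, 0 and 4 tags. In all, 8 sites in annotated 3′UTRs of phosphatase genes were listed under another name, with 74 tags. Of these, 7 carried a microRNA's name and held 20 tags, and the other was the Ppp3r1 site named Wdr92. Apart from those of Ppp3r1 and Ptprs none had more than 2. Ptprz1, a receptor typical of astrocytes and oligodendrocyte precursors, had 4, 1, 0 and 0 tags. Of the 6 phosphatases known from glia, blood or vessels, only Ptprz1 and the glycogen-targeting subunit Ppp1r3c (1 tag) had tags.

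Ptpn23, chosen after its values were seen, was listed with 9, 3, 0 and 1 tags, all 75.3 kb past the end of the gene. This site resembled Bc1, sharing 56 of the 63 words of 12 bases searched for, lay beside a run of 14 A and had 95.05% of bases marked as repeats. No tag lay in Ptpn23 itself. Among the remaining non-receptor enzymes Ptpn1, known as PTP1B, had 4 tags and Ptpn21 had 3. The dual-specificity genes included the MAP kinase phosphatases Dusp1 with 2 tags and Dusp6 with 1, and Dusp8 led them with 6. Of the Ppm1 enzymes, which need a metal ion, Ppm1e, a phosphatase of calmodulin-dependent kinases, had 4, 2, 2 and 1 tags. Of its 9 tags, 8 lay 15 bases before the end of the gene, 3959 bases after the stop codon.

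**Figure D3:**
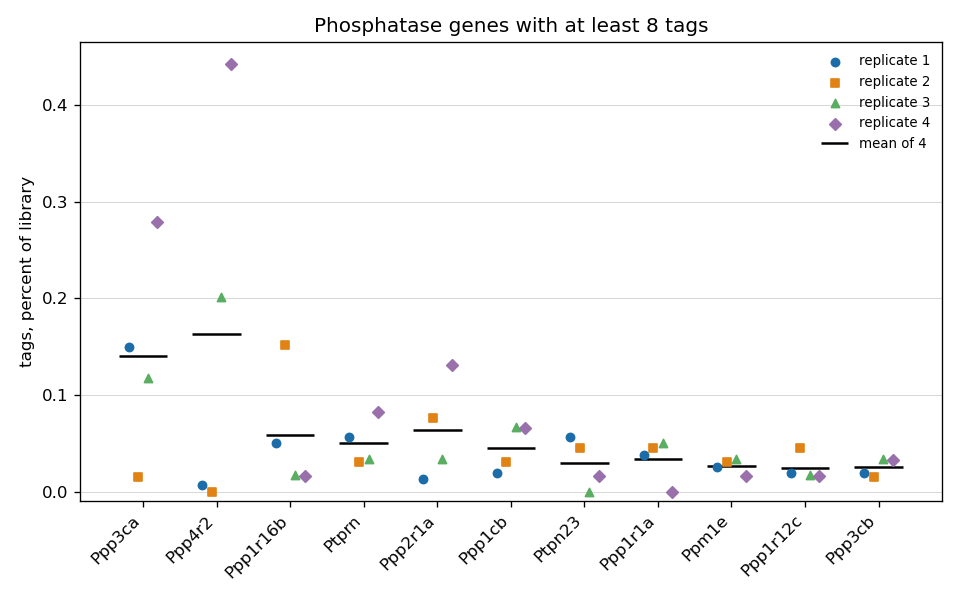
Share of library tags (percent, y axis) of the phosphatase genes with at least 8 tags, named as in the table; points are single libraries and bars are means of 4. Ppp3ca and Ppp4r2 span the widest ranges, with Ppp4r2 at 0.443% in replicate 4 and 0 in replicate 2, whereas Ppp3cb and Ppm1e stay below 0.04% in every library.

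Spread between libraries beyond counting error was tested with an exact multinomial test of each gene's tags against the library totals. Over all genes with at least 20 tags it called 148 of 211 (70.1%), and it called all 3 phosphatase names with that depth. Adjusted p of this exact test was 2.4e-13 for the name Ppp4r2, 0.0028 for Ppp3ca and 0.00675 for Ppp1r16b, and 0.0115 for the site named Wdr92. Of the 40 tags named Ppp4r2, 35 lay at the intron site outside that gene, so its value mainly describes that site. Since most genes of the table were called, the 3 calls show nothing particular to phosphatases. Without replicate 2 the adjusted p for Ppp3ca was 0.0916. Ppp1r16b had exactly 20 tags and could not be tested once a library was left out. At 10 tags or more the exact multinomial test called 218 of 533 genes (40.9%). There 4 of 8 phosphatase genes were called by this exact test, with Ppp2r1a added (adjusted p = 0.0106). Ppp1cb, Ptpn23, Ppp1r1a and Ptprn were not called by it (exact test, adjusted p from 0.304 to 0.659).

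The share of phosphatase sites in a 3′UTR was near that of all sites. Of the 107 sites, 84 (78.5%, against 76.5%) lay there, 9 in introns, 1 in a noncoding exon and 13 between genes. By tags, 86.2, 88.1, 73.6 and 64.9% of each library's phosphatase tags lay in a 3′UTR, 78.2% ± 10.9 (SD, n = 4), against 60.9, 81.0, 73.2 and 80.1%, or 73.8% ± 9.29, for all tags. The phosphatase value was above that of all tags in replicates 1 to 3 and below it in replicate 4. The shares of replicates 3 and 4, the lower ones, were those with the Ppp4r2 intron site. Of all phosphatase sites, 92 (85.98%) lay inside the gene they were named for, against 76.5% of all sites. For 8 genes no site did, and apart from Ptpn23 these had 1 to 4 tags. Within 100 bases of a coding transcript's end lay 54 sites (50.5%, against 52.3% of all sites), 53 of them upstream of it, at a median of 21.5 bases before it (22 for all sites).

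**Figure D4:**
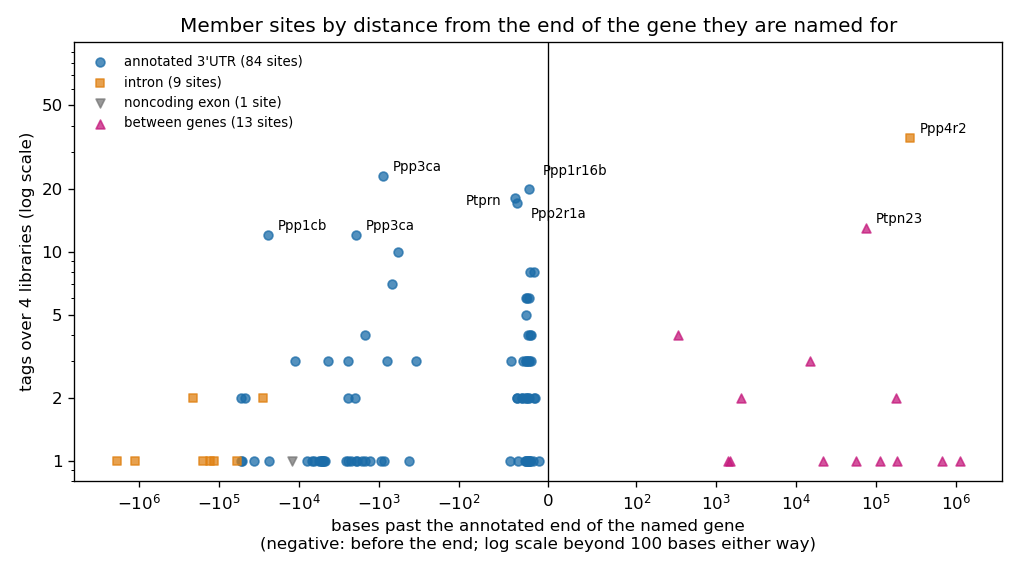
Tags of each phosphatase site over the 4 libraries (y axis, log scale) by bases past the annotated end of the gene it is named for (x axis, negative before the end, log scale beyond 100 bases). Sites of 3′UTRs gather just before 0, and the tallest points to the right are the Ppp4r2 intron site (35 tags) and the Ptpn23 site (13 tags).

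Tags in more than 1 replicate were found at 40 phosphatase sites, 37.4% (95% Wilson interval 28.8 to 46.8%), against 34.2% of all sites. For sites in a 3′UTR of their own gene the count was 36 of 83. For sites between genes it was 2 of 13, and for intron or noncoding exon sites 2 of 10. Tags in every replicate were found at 8 sites (7.48%, against 4.90% of all sites), 1 each in Ppp3ca, Ppp3cb, Ppp1cb, Ppp1r16b, Ppp1r12c, Ppp2r1a, Ptprn and Ppm1e. At this depth 54 sites (50.5%) rested on 1 tag, and for these no difference between libraries was detectable.

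AATAAA or ATTAAA stood within 50 bases of 81 phosphatase sites, 75.7% (95% Wilson interval 66.8 to 82.8%), against 78.1% of all sites. A run of at least 10 A in the 50 bases downstream was present at 21 sites, 19.6% (13.2 to 28.1%), against 13.4% of all. Of sites with such a run, 47.6% had a signal, against 82.6% of phosphatase sites without it. Over all sites these shares were 46.8 and 82.9%. Sites with a run held 50 of the 358 tags. Of the 10 sites over 10 kb past the gene of their name, 6 had a run and 2 had tags in more than 1 replicate.

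More than 1 site was listed for 20 of the 72 genes (27.8%, against 21.7% of all names). Where several sites lay in the 3′UTR of the gene itself (14 genes), the most distal site held 20, 38.5, 39.1 and 19.4% of tags in replicates 1 to 4, or 29.2% ± 11.0 (SD, n = 4). Over all 806 genes of that kind it held 59.7, 65.5, 50.04 and 56.4%, or 57.9% ± 6.44. The phosphatase value was lower in every replicate, but it rested on 55, 13, 23 and 31 tags and no test was made. Without Ppp3ca it was 35.8% ± 8.08. Ppp3ca, Ppp3cb (7 of 8 tags at a site 1429 bases after the stop codon), Ppp1cb and Ppp1r1a had most tags at a nearer site. Distal tags exceeded those at the nearest site in 7 of the 14 genes (50%, against 45.8% of the 806) and fell short in 4 (28.6% against 21.7%). By this count, which leaves out the sites in between, the phosphatases lay near all genes. It is another measure than the distal share. Ppp3ca, with 6 distal tags, 1 at the nearest site and 49 in all, counts in it as more distal. With every listed site included the distal share was 43.0% ± 12.9 for the phosphatases and 47.4% ± 2.88 for all genes, and without Ppp4r2, whose most distal site is the intron site, 32.6% ± 10.6.

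Among partners of these phosphatases, 38 of 51 listed genes had tags, 539 in all and 1.59% ± 0.358 of a library (SD, n = 4). Calm3 and Calm2 encode calmodulin, which activates calcineurin. Calm3 had 39, 17, 3 and 12 tags, and Calm2 had 16, 5, 9 and 13. Nrgn, which binds calmodulin at low calcium, had 32, 6, 6 and 9. Arpp19, an inhibitor of PP2A once phosphorylated, had 1, 1, 6 and 16 tags, high in replicate 4, while Phactr1, which binds PP1 and actin, had 18, 3, 1 and 1, high in replicate 1. Of the 8 partner genes with at least 20 tags, 4 differed between libraries beyond counting error, against 70.1% of all genes. Adjusted p was 1.2e-07 for Arpp19, 0.0270 for Phactr1 and 0.0417 for Calm3, and from 0.120 to 0.908 for Calm2, Nrgn, Camk2b and Pcp4.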

How the data were processed

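The authors deposited tag counts, whole numbers without normalization, for polyA sites 1 base long, each with strand and gene symbol. The counts were labelled as neuropil tags that overlap Camk peaks, so tags elsewhere are not included. Per the methods, tags were mapped to the genome and clustered with CTK. Submitters' processing notes name cutadapt, Novoalign and mm10 without versions. Whether duplicate tags were collapsed is not given in the sources used here. The members and gene lists were chosen with earlier results of these data known. Sites were placed on GENCODE vM21 and RefSeq GRCm38 (no site lay past a chromosome end), and names were used as deposited. Shares are percent of a library's tags at the listed sites, mean ± SD. Tests, checked on simulated data, used Python 3.11.15, scipy 1.17.1 and pysam 0.24.0, two-sided with Benjamini-Hochberg adjustment over all genes tested (threshold 0.05): exact multinomial for gene shares and exact Freeman-Halton for site usage, both at a minimum of 20 tags. Above 200 tags the chi-square approximation was used. The exact sign-flip tests of 4 pairs of genes were adjusted over those 4 pairs only. With 4 replicates none of them could pass the threshold. Values per replicate were given for genes with at least 15 tags, a site in every replicate, a test call, calcineurin and catalytic subunits, and glial phosphatases. Some values are not reported here. Replicates are separate pools of mice, and p-values measure the spread of tags between libraries.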

Additional observations from a re-analysis of the deposited data

How the results depend on the processing

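Of 89 recomputed summary values 71 stayed within their spread or within 1.5 times the count. Of 27 recomputed adjusted p-values of single genes 25 kept their side of the threshold, and 144 recomputed shares of single genes, which have no threshold, moved by less than 1 SD. That SD is wide for Ppp4r2, whose share went from 0.163% by name to 0.00576% by annotated gene. The calcineurin share was 0.335% by annotated gene. The tyrosine and dual-specificity share was 0.289% with Bc1-like sites left out of the totals and 0.160% over sites seen in more than 1 replicate. Sites in more than 1 replicate made up 25.6 to 32.6% with a replicate left out and 14.95% at 2 tags or more per replicate. Signals stood within 50 bases upstream of 29.9% of sites. The distal share was 29.2% within own 3′UTRs. Leaving out a replicate gave 84 to 111 genes called for gene share of 112 to 158 tested, with 1 to 2 phosphatase genes of 1 to 2 tested, and 5 to 7 genes called for site usage of 45 to 72 tested, with 0 phosphatase genes of 1 to 2. At 50 tags 48 of 56 genes were called for gene share, and no phosphatase gene had enough tags to be tested. With the site with the most tags set apart, 1 phosphatase gene, Ppp3ca, was called for site usage, among 17 of 101 genes. The causes were not tested. The shares without the intron and Bc1-like sites (0.952%, or 1.09% with Bc1-like sites left out of the totals too), inside own genes (0.892%) and without Ppp3ca (35.8% distal) were chosen after seeing the data. No analysis paired between conditions was possible because the labels give 1 group. Depth limits single genes, since 25 of 72 (34.7%, against 43.7% of all names) had 1 tag.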

Other observations

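Of 41 listed phosphatase genes outside these families, 18 had tags, 49 in all, or 0.143% ± 0.0718 of a library (SD, n = 4). Pdxp, which dephosphorylates pyridoxal phosphate and cofilin, had 5, 1, 3 and 1 tags, and Synj1, a lipid phosphatase of synaptic vesicle recycling, had 2, 0, 0 and 4. None reached the 20 tags of the test.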
